A study of Mus musculus with 8 samples.

Results

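The tetracycline state of 3134 cells, a mouse mammary epithelial line, was compared across 4 related lines at the DNase-accessible sites that all of their libraries share. Hotspots, the stretches of the genome in which DNase-seq tags are enriched, were merged across the 8 deposited lists wherever they overlapped by at least 1 bp. Of 99999 merged sites, the 12592 (12.6%) that were listed in all 8 libraries were used. The size of the difference between the states was not used in this choice, but a site had to be dense enough to be listed in both states of each line. The 4 libraries without tetracycline came from cells with dominant-negative Brg1 (DNBrg1), with dominant-negative CHD4 (DNCHD4), with dominant-negative Snf2h (DNSnf2h) and from the parental 3134 line. The 4 libraries with tetracycline came from the same 4 lines, so each line gave 1 pair.

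Tetracycline-regulated lines were kept in 5 µg/ml tetracycline, which holds the dominant-negative protein repressed, and cells were then plated for 48 hours without or with the drug in medium with charcoal-dextran treated serum. The DNSnf2h construct is FLAG-tagged human SNF2H with lysine 211 changed to arginine, and the DNCHD4 construct is mouse Chd4 with a triple FLAG tag and lysine 250 changed to cysteine. Both were carried by the retroviral vector pRevTRELink and integrated into a 3134 line that holds the tetracycline transactivator (3134Tet, 7110). The labels do not describe the DNBrg1 construct, do not say whether a line is 1 clone, and do not say whether the parental cells hold the transactivator. In the 3 dominant-negative lines, drug removal and induction of the protein happen together and cannot be told apart within a line. For the parental line the labels name no dominant-negative protein.

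DNase I cuts DNA where nucleosomes are absent, displaced or loosely held, and the sites it opens in a nucleus are mostly promoters, enhancers and binding sites of other regulatory factors. Remodeling ATPases move, evict or space nucleosomes at such sites. SWI/SNF complexes use Brg1 as their motor, the NuRD complex uses Chd4, and complexes of the ISWI family use Snf2h. Tetracyclines also act on mammalian cells that hold no tetracycline-regulated gene, among other routes by slowing protein synthesis in mitochondria.

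The shared sites were the strong ones. Their geometric mean density over the 8 libraries had a median of 52.7 and their merged width a median of 1052 bp, while the 5202 sites listed in exactly 7 libraries had medians of 27.4 and 833 bp. Sites that were listed in one state only lie outside the comparison, since they lack a value in the other: 65 sites were listed in all 4 libraries without tetracycline and in 0 with it, and 73 in 0 without and in all 4 with it. The lists held 30423 (DNBrg1), 78093 (DNCHD4), 33793 (DNSnf2h) and 35071 (parental) hotspots without tetracycline, and 29379, 48888, 24890 and 35083 with it, in the same order. Highest tag densities were whole multiples of 1 step in each library, so density could be read as tags, and the median shared site held 107 to 445 tags without and 117 to 510 tags with tetracycline.

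Each site was described by its highest tag density in a library and by the log2 ratio of the density without over the density with tetracycline in the same line. As deposited, the median ratio was -0.62 in DNBrg1, -0.03 in DNCHD4, 0.03 in DNSnf2h and -0.36 in parental cells. The scale of the deposited densities is not documented, so the median of each pair was set to 0, and all ratios below are relative to it unless they are called deposited. After this centring the ratios had an SD across sites of 0.68 in DNBrg1, 0.56 in DNCHD4, 0.58 in DNSnf2h and 0.43 in parental cells. The median counting error of 1 ratio was 0.17, 0.10, 0.20 and 0.13 in the same order. A site was at least 2-fold from the median in 13.3% of cases in DNBrg1, 8.28% in DNCHD4, 8.54% in DNSnf2h and 3.07% in parental cells. In the 3 dominant-negative lines most such sites were lower without tetracycline (1276, 801 and 814 lower against 402, 241 and 261 higher), whereas parental cells had 189 lower and 198 higher.

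With the 4 lines taken as 4 repeats, more of the sites that passed the test were lower without tetracycline than were higher, while over all shared sites the mean ratio was centred close to 0. The mean of the 4 paired ratios ran from -2.23 to 2.04 over the 12592 sites, with a median of 0.02 and an SD of 0.43. By limma, with Benjamini-Hochberg adjustment over all sites and an adjusted p under 0.05 as the threshold, 1621 sites (12.9%) changed. Density rose without tetracycline at 455 of them (3.61% of sites) and fell at 1166 (9.26%), so 28.1% of the changes were rises. On the deposited scale the count was 1879, with 83 rises and 1796 falls, and 4.42% were rises. The balance of rises and falls therefore depended on the scaling, while falls outnumbered rises on both scales. The median SE of a mean ratio was 0.20. Without the DNCHD4 pair 432 sites passed (92 rises and 340 falls), and without the parental pair 185 rises passed. The test draws on a spread pooled across sites: a one-sample test of each site's own 4 ratios called 0 sites after adjustment and 2469 at an unadjusted p under 0.05, against 3720 at that level by limma.

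Most of the changes were under 2-fold and had 1 direction in all 4 lines. Rises had a median mean ratio of 0.71, falls one of -0.88, and 70 rises and 374 falls reached 2-fold. All 4 lines had the same sign at 441 of the 455 rises and at 1139 of the 1166 falls, against 36.3% of all shared sites. At rises the median ratio was 0.78 in DNBrg1, 0.70 in DNCHD4, 0.62 in DNSnf2h and 0.71 in parental cells, a narrow range in which parental cells stood among the dominant-negative lines. At falls it was -1.07 in DNBrg1, -0.996 in DNCHD4, -0.90 in DNSnf2h and -0.58 in parental cells, so the parental fall was the smallest of the 4. These signs and medians are over sites chosen by the mean of the same ratios and describe the calls without testing them.

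The greatest falls lay on chromosomes 15, 2, 3, 7, 17 and 11 of build mm9. At chr15:62400370-62401635 (fall 1, 1266 bp) density without tetracycline was 10.5 in DNBrg1, 34.1 in DNCHD4, 12.5 in DNSnf2h and 36.8 in parental cells, and with tetracycline it was 161, 161, 49.3 and 122 in the same order. All 4 values without tetracycline lay below all 4 values with it, and the parental pair showed the smallest ratio. The mean ratio was -2.23 (SE 0.26, 4 pairs), a 4.69-fold fall with a limma adjusted p of 0.000438, and the ratios of single lines ran from -3.32 in DNBrg1 to -1.37 in parental cells. A second site of the same chromosome, chr15:50535039-50536003 (fall 2), had 16.3 in DNBrg1, 16.1 in DNCHD4, 11.5 in DNSnf2h and 14.2 in parental cells without tetracycline, against 66.2, 106, 50.2 and 55.2 with it. The states did not overlap here either, and the 4 lines were close to one another without the drug. The mean ratio was -1.96 (SE 0.24; limma adjusted p = 0.000484). The site at chr15:62529802-62530843 (fall 4) lay close to fall 1 on that chromosome. It had 9.19, 49.5, 38.1 and 55.9 without tetracycline in DNBrg1, DNCHD4, DNSnf2h and parental cells, against 82.0, 222, 114 and 152 with it, and a mean ratio of -1.84 (SE 0.22; limma adjusted p = 0.000456). Again the states were separate.

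The other falls named by the fixed rule, which took the 8 lowest mean ratios among changed sites with 1 sign in all 4 lines, differed in how far the lines agreed in level. At chr2:166183065-166184185 (fall 3) density was 11.2, 64.2, 18.3 and 76.2 without tetracycline in DNBrg1, DNCHD4, DNSnf2h and parental cells, and 128, 250, 59.2 and 227 with it. The states overlapped, because parental and DNCHD4 cells without the drug stood above DNSnf2h cells with it, yet each line fell (mean ratio -1.94, SE 0.23; limma adjusted p = 0.000438). A fall with little spread between lines was that of chr11:101548438-101549803 (fall 8), with 38.5, 36.4, 16.5 and 29.1 without and 166, 164, 59.6 and 103 with tetracycline in the same order of lines. Its 4 ratios lay between -2.14 and -1.46, the states did not overlap, and the mean was -1.74 (SE 0.19; limma adjusted p = 0.000429). The sites chr3:106634762-106635729 (fall 5), chr7:90865357-90866624 (fall 6) and chr17:44171814-44172521 (fall 7) had mean ratios of -1.81, -1.77 and -1.75. Fall 6 overlapped between the states and the other 2 did not.

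**Figure D1:**
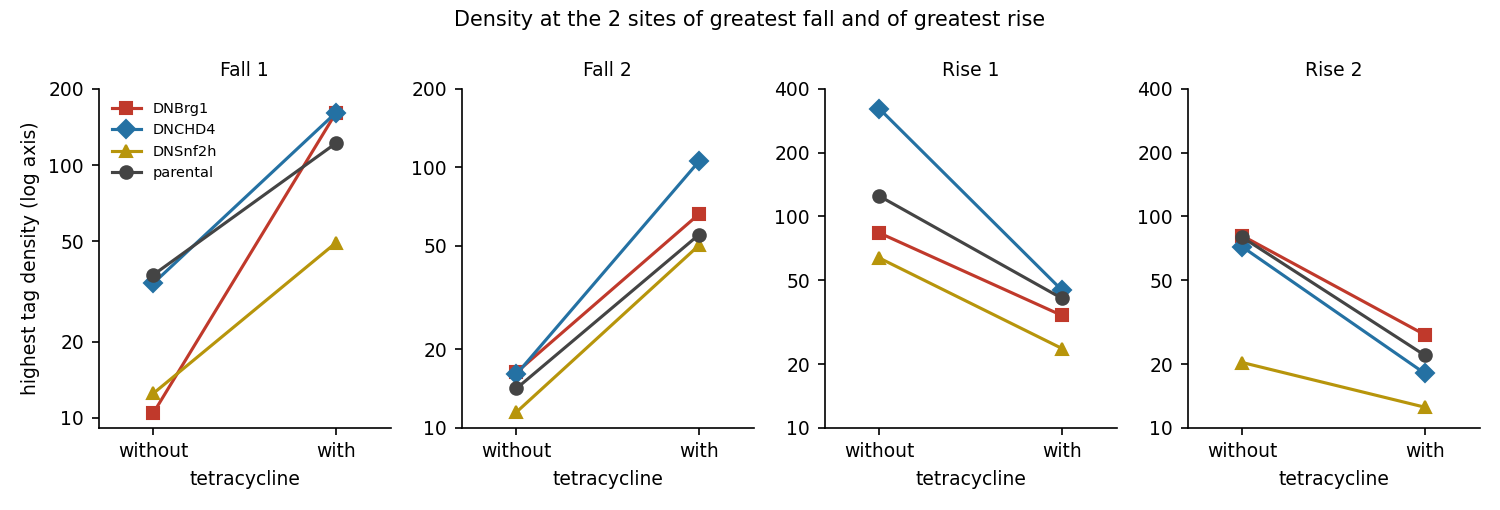
Highest tag density (log axis) without and with tetracycline at the 2 sites with the greatest mean fall and the 2 with the greatest mean rise, 1 line per cell line. Fall 1, fall 2 and rise 1 show no overlap between the states, and at rise 2 the DNSnf2h pair lies below the others, at 20.4 without and 12.5 with tetracycline.

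Among the 8 falls the states were separate in 6. A ratio below 0 in each of the 4 lines was a condition of the rule that named them. Across all shared sites, 247 (1.96%) had every library without tetracycline below every library with it on the deposited scale, and 192 of them were among the falls called by limma. The fall was largest in DNBrg1 at 5 and in DNCHD4 at 3 of the 8 sites, and smallest in parental cells at 6 and in DNBrg1 at 2. Named falls were 708 to 1366 bp wide, and 7 of the 8 held a single hotspot in each library. So did 10525 of all 12592 shared sites, so this is no trait of the falls.

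The greatest rise was at chr11:116613494-116620282 (rise 1), a broad site of 6789 bp in which a library listed up to 5 hotspots. Density without tetracycline was 83.4 in DNBrg1, 323 in DNCHD4, 63.5 in DNSnf2h and 125 in parental cells, against 34.0, 44.7, 23.7 and 40.9 with it. The states did not overlap, and DNCHD4 cells without the drug stood far above the other libraries. The mean ratio was 2.04 (SE 0.22), a 4.11-fold rise with a limma adjusted p of 0.000429, and the single ratios ran from 1.39 in DNSnf2h to 2.88 in DNCHD4. At chr14:106562565-106563859 (rise 2) density was 80.9, 71.7, 20.4 and 79.5 without tetracycline in DNBrg1, DNCHD4, DNSnf2h and parental cells, against 27.5, 18.1, 12.5 and 22.0 with it. The other 3 lines rose by ratios of 2.02 to 2.22 and DNSnf2h by 0.67, and its value without the drug overlapped the values of other lines with it. The mean was 1.77 (SE 0.26; limma adjusted p = 0.00123).

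The site at chr17:39979698-39985946 (rise 6, 6249 bp) had by far the highest density of the named sites. It held 5222 in DNBrg1, 4689 in DNCHD4, 1459 in DNSnf2h and 4129 in parental cells without tetracycline, against 1802, 1832, 567 and 2126 with it. All lines but DNSnf2h were alike in level, and the DNBrg1 ratio of 2.16 stood apart from ratios of 1.32 to 1.39 in the other lines. Counting error there was at most 0.03 on the log2 scale, since each library held 3038 to 23942 tags, and the mean ratio was 1.55 (SE 0.16; limma adjusted p = 0.000429). Whether its sequence occurs in several copies in the genome was not tested, because no genome of this build was used here, and no source used here states how tags that map to several places were treated.

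At chr1:72827057-72827990 (rise 8) density was 24.7, 175, 73.0 and 210 without tetracycline in DNBrg1, DNCHD4, DNSnf2h and parental cells, against 24.0, 37.9, 27.3 and 81.2 with it. On the deposited scale DNBrg1 was nearly level there, with a ratio of 0.04, and its centred ratio of 0.66 comes from the shift of the whole library. The mean was 1.51 (SE 0.23; limma adjusted p = 0.0015). The site at chr13:16830990-16832061 (rise 7) had separate states, with 83.7, 184, 82.0 and 150 without against 31.1, 64.9, 48.4 and 58.0 with tetracycline and a mean ratio of 1.51. The remaining rises were chr13:67673345-67674215 (rise 3), chr17:92261258-92262299 (rise 4) and chr16:78737887-78738788 (rise 5), with mean ratios of 1.77, 1.63 and 1.56.

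The states were separate at 2 of the 8 named rises, rises 1 and 7. Of all shared sites, 3 (0.0238%) had every library without tetracycline above every library with it on the deposited scale, all 3 of which were called by limma. The median ratio on that scale was below 0 in DNBrg1, DNCHD4 and parental cells. Rises were smallest in DNSnf2h at 6 of the 8 sites. They were largest in DNBrg1 at 4, in DNCHD4 at 2 and in parental cells at 2. Parental cells had a ratio of at least 1.32 at each of the 8 sites, which were ranked by a mean that includes the parental ratio. The rule also required a ratio above 0 in each line, so these values describe the choice.

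**Figure D2:**
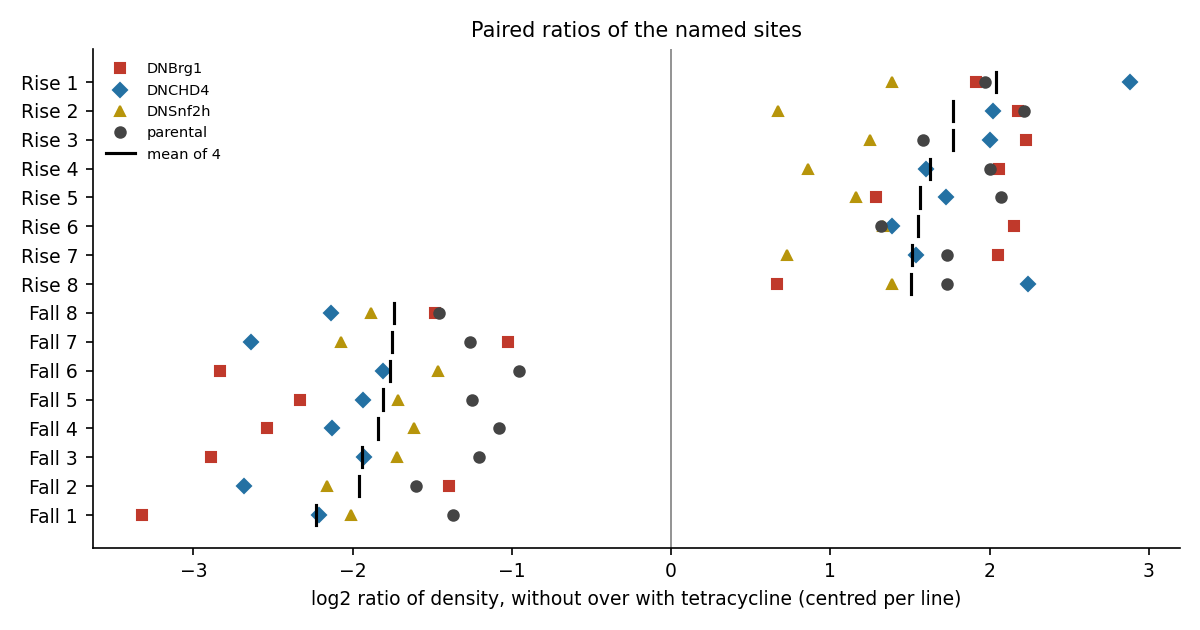
Centred log2 ratio without over with tetracycline of each line (symbols) and their mean (bar) at the 8 named rises and the 8 named falls. At falls the parental symbol is nearest to 0 in 6 of 8 sites, and at rises the DNSnf2h symbol is nearest to 0 in 6 of 8.

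The sign of the ratio was shared by all 4 lines at 4575 sites (36.3%), whatever their size. Of these, 2212 (17.6%) were higher and 2363 (18.8%) lower without tetracycline in each line. On the deposited scale the count was 4272, with 455 higher and 3817 lower. An exact two-sided sign test of 4 pairs cannot give a p below 1 in 8, so sign agreement at a single site is a description. Another 2716 sites were higher in 3 lines, 2414 in 1 line and 2887 in 2.

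Where a single line stood against the other 3, it was DNBrg1 at 1156 sites, DNCHD4 at 789, DNSnf2h at 1589 and parental at 1596. Among sites divided 2 against 2, DNCHD4 and DNSnf2h stood together against DNBrg1 and parental cells at 1553, while the other divisions had 690 and 644 sites. DNCHD4 was thus the line least often alone. The median counting error of a ratio was 0.17 in DNBrg1, 0.10 in DNCHD4, 0.20 in DNSnf2h and 0.13 in parental cells. Its part in these counts and in the correlations below was not tested. Correlations across the 12592 sites describe how alike the lines were: Pearson's r between the ratios was 0.59 for DNCHD4 and DNSnf2h, 0.53 for DNCHD4 and parental, 0.51 for DNBrg1 and parental, 0.49 for DNBrg1 and DNCHD4, 0.32 for DNBrg1 and DNSnf2h, and 0.30 for DNSnf2h and parental. Each line has its own pair of libraries, so no library enters 2 ratios. Sites within a library share its depth and its digestion, and neighbouring sites are not independent.

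The change in a line could be set against sites chosen without it. Each line was left out in turn, sites were called by limma from the 3 remaining pairs, and the ratio of the left-out line was read at those sites. Parental cells, which had no part in the choice, were higher without tetracycline at 179 of the 185 sites (96.8%) that rose in the 3 dominant-negative lines, and lower at 855 of the 934 sites (91.5%) that fell in them. The mean ratio of the dominant-negative lines had a median of 0.90 at those rises and -1.06 at those falls, and the parental ratio had medians of 0.73 and -0.52. Calls made up 1.47% (rises) and 7.42% (falls) of all sites in that fit, and 50% of all sites had either sign in a line by the centring.

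Each dominant-negative line, when left out, also had the sign of the calls at most of the sites. DNCHD4 had the same sign at 91 of 92 rises (0.731% of sites called) and 336 of 340 falls (2.7% called), with medians of 0.92 and -1.20. DNBrg1 had it at 409 of 487 rises (84.0%; 3.87% of sites called) and 1055 of 1151 falls (91.7%; 9.14% called), with medians of 0.54 and -0.86. DNSnf2h had it at 359 of 456 rises (78.7%; 3.62% called) and 847 of 900 falls (94.1%; 7.15% called), with medians of 0.32 and -0.81. The left-out ratio at rises was therefore lowest in DNSnf2h, and at falls it was closest to 0 in parental cells. A fall of at least 2-fold was reached by the left-out line at 42.7% of the called falls for DNBrg1, 64.1% for DNCHD4, 36.1% for DNSnf2h and 13.8% for parental cells, each at its own set of sites. Over all sites the same shares were 10.1%, 6.36%, 6.46% and 1.501% in this order, so each line exceeded its own share over all sites, and the lines differ in that share.

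**Figure D3:**
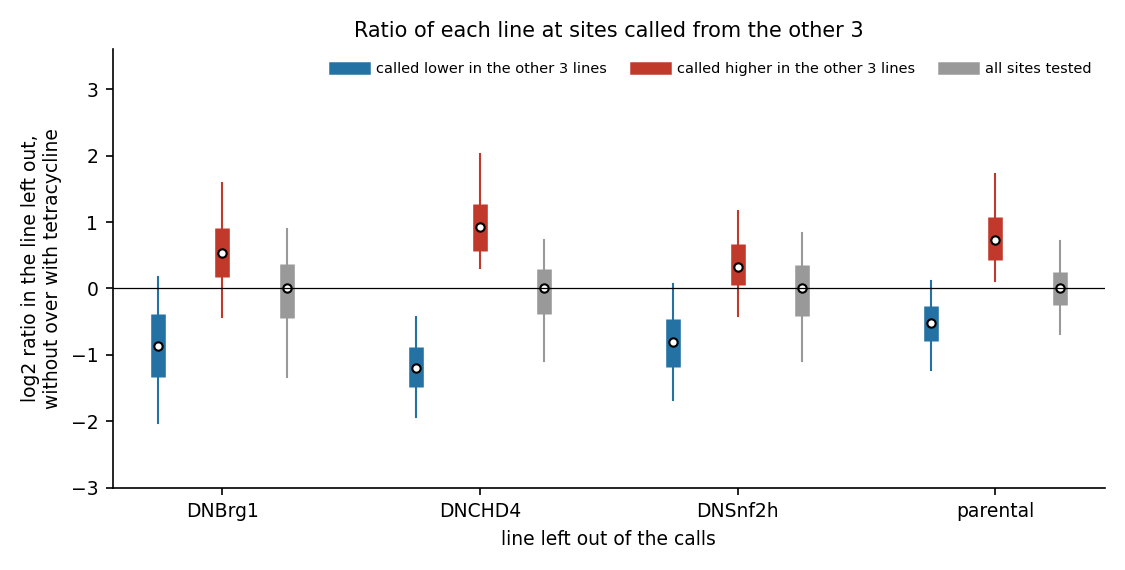
Log2 ratio of each line at sites called lower (blue) or higher (red) from the other 3 lines and at all sites tested (grey). Circles are medians, boxes run from the 25th to the 75th and lines from the 5th to the 95th percentile, and the median of the left-out line has the sign of the calls in all 4 lines.

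A direct test of the dominant-negative lines against the parental line found no site past the threshold. The mean ratio of the 3 dominant-negative pairs minus the parental ratio ran from -1.84 to 1.45, with a median of -0.03 and an SD of 0.43. By limma 0 sites (0%) passed an adjusted p of 0.05, the lowest adjusted p was 1, and 206 sites had an unadjusted p under 0.05. The median SE of such a difference was 0.48, because the parental line has 1 pair and the spread comes from lines with 3 different proteins. A difference of 2-fold was therefore about as large as 2 SE at a typical site, and 27 sites were at least 2-fold above the parental ratio and 249 at least 2-fold below it. Leaving out the DNBrg1 pair gave 5 sites, each with a lower ratio in the dominant-negative lines than in parental cells.

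The site with the lowest p in this contrast was chr8:14600218-14601863. Density there was 13.3 in DNBrg1, 40.9 in DNCHD4, 13.7 in DNSnf2h and 66.9 in parental cells without tetracycline, against 94.3, 118, 47.6 and 87.7 with it. The 3 dominant-negative lines had ratios of -2.21, -1.49 and -1.83 and parental cells one of -0.03. The difference was -1.81 (SE 0.48) and did not pass (limma adjusted p = 1). At chr1:71809984-71810693 density without tetracycline was 39.3, 13.9, 12.5 and 47.9 in DNBrg1, DNCHD4, DNSnf2h and parental cells, against 137, 63.0, 28.8 and 49.3 with it. Parental cells were level on the deposited scale (ratio -0.04), and the difference of -1.84 (SE 0.54; limma adjusted p = 1) was the lowest of all sites. In the opposite direction, chr11:78884734-78885691 had 12.0, 82.4, 17.7 and 22.1 without and 24.6, 85.5, 14.8 and 81.5 with tetracycline in the same order of lines. There the dominant-negative ratios of -0.42, -0.02 and 0.23 stood above the parental ratio of -1.52, and the difference of 1.45 (SE 0.51) did not pass either.

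Other sites in this contrast were chr5:32057323-32058240 and chr4:8532421-8533365, with differences of -1.26 and -1.39, and chr1:174077772-174079206, chr11:9017544-9018949 and chr4:134023904-134025589, with differences of 1.20, 1.32 and 1.33. None of the 5 passed. Sites at which parental cells went the opposite way to all 3 dominant-negative lines numbered 817 with a lower and 779 with a higher parental ratio. The clearest of them, ranked by the smallest of the 4 absolute ratios, were chr7:26473889-26474807 and chr9:107996496-107997419 (parental -0.39 and -0.38) and chr11:53122252-53122966 and chr11:116379621-116380437 (parental 0.62 and 0.61). At chr11:53122252-53122966 density was 13.0, 17.8, 15.3 and 22.9 without tetracycline in DNBrg1, DNCHD4, DNSnf2h and parental cells, against 56.2, 31.0, 21.7 and 19.2 with it.

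With ratios centred over all shared sites, rises were more frequent among strong sites and falls among weak ones. In 5 density classes of equal size, ranked from weakest to strongest by geometric mean density over all 8 libraries, the median mean ratio was -0.14, -0.05, -0.01, 0.07 and 0.15. Rises made up 1.71% of the weakest and 6.83% of the strongest class, and falls 11.1% and 5.2%. All 4 lines had their highest median in the strongest class, at 0.23 in DNBrg1, 0.07 in DNCHD4, 0.15 in DNSnf2h and 0.13 in parental cells. The weakest class was at -0.13, -0.22, -0.17 and -0.06 in the same order. The mean of both states was used to rank sites. The spread of density across sites was not compared between the states, so a tilt from the ranking itself was not tested. A list threshold can remove weak sites with low values from one state only, and it stood lower without than with tetracycline, relative to the median ratio, by log2 ratios of -0.22 in DNBrg1, -0.63 in DNCHD4, -0.03 in DNSnf2h and -0.01 in parental cells. The part of the list threshold in the trend, and in the balance of rises and falls over all shared sites, was not tested. With a smooth curve of ratio on density subtracted in each pair, 390 sites rose and 995 fell. The stronger 6296 sites were also fitted alone, with each pair centred at the median of these sites. In that fit 145 sites rose and 495 fell, so falls outnumbered rises among strong sites too, and 22.7% of the changes were rises.

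**Figure D4:**
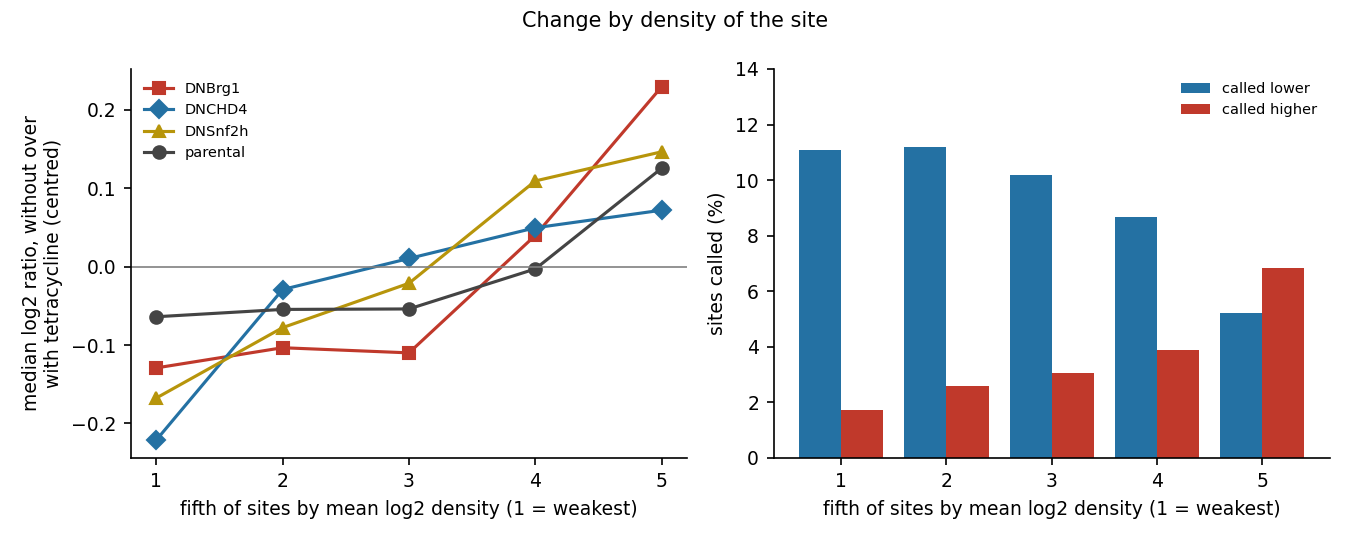
Left, median centred log2 ratio without over with tetracycline of each line by density class. Right, share of sites called lower and higher in each class, from 11.1% lower and 1.71% higher in the weakest to 5.2% lower and 6.83% higher in the strongest.

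The strongest 1% of sites (125), a cut chosen after the values were seen, held 29 rises and 1 fall. These were 23.2% and 0.8% of the set, against 3.61% and 9.26% of all shared sites. Their median ratio was 0.61 in DNBrg1, 0.09 in DNCHD4, 0.09 in DNSnf2h and 0.42 in parental cells, so the lines divided DNBrg1 and parental from DNCHD4 and DNSnf2h. The 4 sites of this set with the widest spread between lines, also chosen after their values were seen, had DNBrg1 highest, then parental, DNCHD4 and DNSnf2h. At chr1:24619396-24620156 density was 529 in DNBrg1, 302 in DNCHD4, 225 in DNSnf2h and 223 in parental cells without tetracycline, against 325, 536, 540 and 284 with it. The ratios were 1.32, -0.79, -1.29 and 0.01, highest in DNBrg1 and lowest in DNSnf2h. At chr13:85266194-85267366 the values were 1373, 977, 459 and 809 without and 1585, 1993, 1166 and 1226 with tetracycline in the same order, with ratios of 0.41, -0.99, -1.38 and -0.24. At chr2:22443345-22446159 the ratios were 0.58, -0.89, -1.37 and -0.23 in the same order of lines, and at chr12:98299502-98300268 they were 0.57, -1.09, -1.23 and -0.38. Parental cells were thus below 0 with DNCHD4 and DNSnf2h at 3 of the 4 sites, where DNBrg1 stood alone above 0. None of the 4 had a mean ratio that passed by limma (adjusted p of 0.109 to 0.703). Whether the sequences of these sites occur in several copies in the genome was not tested.

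Width gave a second view of the same sites. Sites narrower than the median width had a lower median mean ratio than wider ones within each density class, from -0.15 against -0.10 in the weakest to 0.14 against 0.15 in the strongest. The summed width of the hotspots that a library listed within a site followed the density. At sites called lower its median was 632 bp in DNBrg1, 812 bp in DNCHD4, 630 bp in DNSnf2h and 759 bp in parental cells without tetracycline, against 748, 944, 769 and 855 bp with it. At sites called higher it was 904, 1016, 762 and 924 bp without and 789, 982, 675 and 902 bp with tetracycline. Sites that fell were thus narrower without the drug in all 4 lines, by a median log2 ratio of -0.22 for the mean of the lines. The mean tag density of a hotspot was a second deposited value. By its ratios, 421 of the 455 rises (92.5%) were higher in all 4 lines. Of the 1166 falls, 1085 (93.1%) were lower in all 4, against 10.6% of sites that were not called. Over all 12592 sites, 2084 were higher and 2243 lower in all 4 lines by this value. Width and mean density come from the same tags as the highest density.

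Changed sites were spread over all 20 chromosomes that hold shared sites. Falls made up 12.9% of sites on chromosome 1 and 12.3% on chromosome 15, and 2.52% on chromosome X (7 of 278), against 9.26% over all sites. Rises ranged from 2.28% on chromosome 18 to 5.16% on chromosome 14. The median mean ratio of chromosome X was 0.10, and all 4 lines were above 0 there (0.16 in DNBrg1, 0.12 in DNCHD4, 0.09 in DNSnf2h and 0.04 in parental cells). These shares describe sites and were not tested between chromosomes.

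The ratios of neighbouring sites were weakly correlated at short range. For the 791 pairs of adjacent sites less than 2 kb apart, the correlation of mean ratios across pairs was 0.31. It was 0.20 at gaps of 2 to 10 kb, 0.16 at 10 to 50 kb, 0.11 at 50 to 200 kb, 0.04 at 200 kb to 1 Mb and 0.03 beyond that. All 4 lines showed the decline up to 1 Mb, and under 2 kb they stood at 0.26 in DNBrg1, 0.27 in DNCHD4, 0.26 in DNSnf2h and 0.17 in parental cells. Under 2 kb the next site was lower at 14 of 76 falls (18.4%), against 8.85% of all next sites at that distance, and higher at 3 of 31 rises (9.68%), against 3.79%. At 2 to 10 kb the next site was lower at 27 of 169 falls (16%, against 10.4%) and higher at 0 of 55 rises (against 2.95%), and 11 pairs at that distance joined a fall and a rise. Adjacent sites come from the same libraries, and these values are descriptions with no test.

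**Figure D5:**
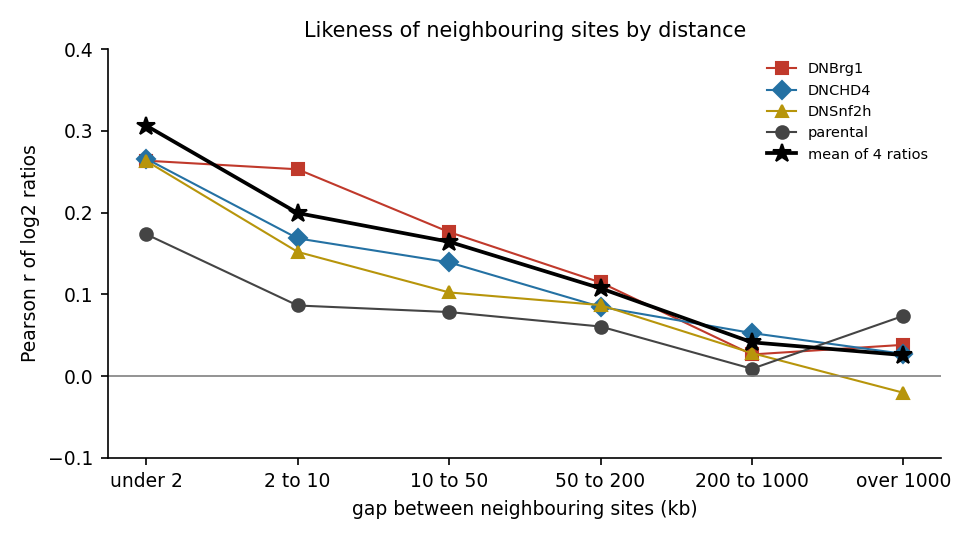
Pearson correlation of the log2 ratios of adjacent shared sites, without over with tetracycline, by the gap between them. The correlation of the mean of the 4 lines is 0.31 under 2 kb and 0.03 beyond 1 Mb.

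A few stretches held several falls or several rises. In windows of 1 Mb, counted after the values were seen, 10 of 1917 windows held 5 or more falls and 2 held 5 or more rises. Over all shared sites 9.26% fell and 3.61% rose, and the number of such windows was not tested against these shares. The window with the most falls was chromosome 1 from 92 to 93 Mb, where 7 of 17 shared sites fell and 0 rose, with window medians of -0.65 in DNBrg1, -0.76 in DNCHD4, -0.40 in DNSnf2h and -0.36 in parental cells. Its site at chr1:92324747-92326166 had 9.95, 62.5, 31.2 and 88.6 without tetracycline in DNBrg1, DNCHD4, DNSnf2h and parental cells, against 41.6, 167, 57.7 and 150 with it, and a mean ratio of -1.04. A second site of that window, chr1:92731146-92731965, had 27.3, 29.4, 25.2 and 24.5 without and 80.3, 99.1, 39.2 and 84.6 with tetracycline. The states did not overlap at the second site. Both sites were picked from the falls of the window after their values were seen.

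The windows with the most rises were chromosome 5 from 93 to 94 Mb, with 5 rises among 11 sites, and chromosome 7 from 52 to 53 Mb, with 5 rises and 1 fall among 32. On chromosome 5 the site chr5:93695652-93697753 had 180, 258, 37.1 and 160 without tetracycline in DNBrg1, DNCHD4, DNSnf2h and parental cells, against 154, 118, 28.8 and 121 with it. Its mean ratio was 0.78. On chromosome 7 the site chr7:52070804-52072385 had 337, 314, 75.6 and 289 without and 242, 244, 43.7 and 220 with tetracycline, and a mean ratio of 0.75. The ratio was above 0 in each line at both sites, which were picked after their values were seen. The level in DNSnf2h was the lowest of the 4 in either state. Window medians in DNBrg1, DNCHD4, DNSnf2h and parental cells were 0.12, 0.44, 0.47 and 0.63 on chromosome 5. On chromosome 7 they were 0.42, 0.24, 0.27 and 0.37. Among the rises of these windows, only chr5:93241743-93242497 had a ratio below 0 in a line (-0.17 in DNBrg1).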

How the data were processed

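The lines, the sites and the rules for naming sites were chosen with earlier results of these data known. CASAVA 1.6 and the mouse build mm9 are named in the submitters' processing notes. Nuclei were digested with 60 to 80 U/ml DNase I for 3 min and fragments of 100 to 500 bp were sequenced, per the labels' protocols. No source used here names the hotspot caller or its filters.

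Each library has 1 list of hotspots from the authors, with 2 densities of tags per hotspot (highest and mean), which are a coverage signal scaled by library, per the file headers. A score of enrichment (z-score) was computed for each hotspot by the authors, per the file headers. A p-value for each hotspot was deposited by the authors as well. Neither was used. In each library 100% of the highest densities were whole multiples of 1 step within 0.05 tags. The step was taken as 1 tag, and the lowest hotspot of a list held 26 to 45 tags. Total depth is unknown. Counting errors cover counting only, since fragments carry no molecular identifiers.

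Lists were merged at an overlap of at least 1 bp. A site took its highest density in each library, and the paired log2 ratio was centred at its median over the 12592 sites. The mean of the 4 ratios was tested with limma 3.58.1 in R 4.3.3 (intercept model, empirical Bayes with a trend on mean density), with Benjamini-Hochberg adjustment over all 12592 sites. The difference between dominant-negative and parental lines was tested in a second limma fit to the same ratios, with 2 residual degrees of freedom. Both fits were tried on simulated ratios with known changes, independent between lines and sites and with the same spread in all lines. The changes given to the second fit were larger than any difference found here. The trial therefore does not show how the fits behave where lines differ in spread, or for smaller differences. Each line and state has 1 library, so p-values measure the spread between lines, which hold different constructs. The pairing comes from the line named in the labels. Deviations from the state means of 2 libraries of a line correlated across sites at 0.61 (DNBrg1), 0.46 (DNCHD4), 0.76 (DNSnf2h) and 0.42 (parental). Libraries of DNCHD4 and parental cells correlated as highly across these lines, at 0.46 for DNCHD4 without and parental with tetracycline and 0.42 for parental without and DNCHD4 with it, so for these 2 lines the values do not single out the labelled pairs. The other 10 cross-line values were at most 0.03.

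The text names the 8 highest and 8 lowest mean ratios among sites past the threshold with 1 sign in all 4 lines, the 4 sites of lowest p in each direction for the difference between dominant-negative and parental lines, and 2 sites in each direction at which parental cells opposed the other 3. Other sites, among them the single sites shown for the 1 Mb windows, were chosen after their values were seen, and the text says so. The annotation given was of another build, so gene names, gene lists, cell type markers and sequences were not used here. Coordinates are 1-based and of mm9. Tables and figures were made with pandas 2.3.3, numpy 2.4.6 and matplotlib 3.10.9 under Python 3.11.15. Alternatives were other centring, mean density, single-hotspot sites, stronger sites, sites listed in at least 6 libraries, an unpaired fit, other limma settings and thresholds, and leaving out each pair.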

Additional observations from a re-analysis of the deposited data

Results flagged for a closer look

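The following values stood apart within groups of 4 by a gap test at the 95% level. Of 42 groups of 4 tested, 5 held such a value, and chance alone gives about 1 in 20 where a group was not chosen for its spread. That rate does not apply to the 2 parental ratios below, since their sites were named for a difference between the dominant-negative and parental lines, nor to the named rises, which were chosen by their ratios. The list of DNCHD4 cells without tetracycline held 78093 hotspots, while the other 3 lines had 30423 to 35071 in that state. At chr14:106562565-106563859 (rise 2) the DNSnf2h ratio was 0.669, and the other 3 lines were between 2.02 and 2.22. At chr17:39979698-39985946 (rise 6) the DNBrg1 ratio was 2.16, and the other 3 were between 1.32 and 1.39. At chr5:32057323-32058240 the dominant-negative ratios were -0.97 to -0.76 and the parental ratio was 0.431. At chr9:107996496-107997419 they were 0.55 to 0.73 and the parental ratio was -0.377.

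At 4 named sites the parental ratio had the opposite sign to all 3 dominant-negative ratios. The dominant-negative mean minus the parental ratio was 0.991 at chr7:26473889-26474807 and 1.04 at chr9:107996496-107997419. It was -1.55 at chr11:53122252-53122966 and -1.23 at chr11:116379621-116380437. None of these differences passed by limma (adjusted p = 1 for each), and the sites were chosen by the signs of these ratios.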

How the results depend on the processing

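The count of 1621 changed sites was 640 at the stronger 6296 sites, those above the median density, and 2975 at sites listed in at least 6 libraries, with the lowest density of a list in place of a missing value. Weighting each ratio by its counting variance gave 2813 sites, of which 38.4% were rises. Thresholds of 0.01 and 0.10 for the adjusted p gave 576 and 2672. With no replicate block, so that the pairing by line was ignored, 0 sites passed and 96 had an unadjusted p under 0.05. The unmoderated one-sample test also gave 0, with 2469 at an unadjusted p under 0.05. Leaving out 1 pair gave 432 to 1638, with the lowest count without DNCHD4. Sites with 1 sign in all 4 lines numbered 2194 among the stronger 6296 and 7570 at sites listed in at least 6 libraries. For the difference between dominant-negative and parental lines, 1 site passed on the deposited scale, and leaving out a dominant-negative pair gave 0 to 5.

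All 8 named falls and 8 named rises kept their direction under every setting run in which they were tested, and lost the threshold with no replicate block and in the unmoderated test. In the weakest of 5 density classes the median counting error of a mean ratio was 0.11 and its median SE between lines 0.22, and in the strongest class they were 0.05 and 0.15. The calls rest on 4 libraries per state from lines that hold different proteins, on a spread pooled across sites, and on sites listed in both states.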
